A study of Rattus norvegicus with 8 samples.

Results

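Hepatic bile acid synthesis was described through 10 genes: the 4 hydroxylases that open the classic and alternative routes (Cyp7a1, Cyp8b1, Cyp27a1, Cyp7b1), the enzymes that finish the steroid ring and join the acid to an amino acid (Hsd3b7, Akr1d1, Slc27a5, Baat), the bile acid receptor FXR (Nr1h4) and the repressor SHP (Nr0b2). They are 10 of the 14217 genes that the array's annotation names singly. The genes were chosen with earlier results of these data known. Their probe sets were taken by gene symbol alone, as every probe set that the array's annotation assigns to these symbols. This gave 11 of the 31042 non-control probe sets on the array. Akr1d1 has 2 probe sets and each of the other genes has 1, and no probe set with several symbols included a member. Of the 11, 10 exceeded their own array's median on at least 2 arrays and were tested among the 16279 probe sets that did so. The exception was Cyp7b1.

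The study asked how the liver X receptors (LXRs) and the glucocorticoid receptor act on each other, and its arrays measured mRNA in livers of male Sprague-Dawley rats in 4 groups of 2 arrays. The Dex group was gavaged with vehicle for 3 days and injected into the muscle with dexamethasone, a synthetic glucocorticoid, at 1.5 mg/kg on the last day. The GW3965 group was gavaged with the LXR agonist GW3965 at 50 mg/kg for 3 days and received the vehicle injection, which the methods give as saline. Dex+GW3965 rats received both compounds at these doses, vehicle rats received neither, and every liver was taken 24 h after the injection. Age is not given in the sources used here. Both arrays of a group carry the same liver number with a letter a or b, while the methods speak of 2 animals, so p-values measure the spread between arrays, which may be technical. Levels are log2 signals, a difference of 1 is a 2-fold change, and SD values have n = 2 arrays.

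Bile acids are made from cholesterol in hepatocytes. In the classic route Cyp7a1 adds the first hydroxyl group and sets the pace, and Cyp8b1 adds the hydroxyl group that makes cholic acid. In the alternative route Cyp27a1 oxidizes the side chain first and Cyp7b1 hydroxylates the ring. Bile acids that return to the liver bind FXR, which induces SHP, and SHP in turn represses Cyp7a1 and Cyp8b1, while in rats and mice LXR activated by oxysterols is known to induce Cyp7a1.

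Hepatocyte markers were high, with a summed log2 signal of the 6 measured markers between 16.76 and 16.83 on the 8 arrays. That sum leans on its brightest gene, Alb, with group means of 14.90 to 14.93. Among the single markers Apoa1 was 0.50 higher with Dex and 0.49 higher with Dex+GW3965 than with vehicle, and Fgb fell by 0.28 with Dex. Groups were taken as labelled, although of 10 listed LXR targets GW3965 raised Abca1 and Pltp and lowered 6, which bears on every GW3965 value below. Over all tested probe sets GW3965 raised 5.92% and lowered 14.5%. Medians of the arrays lay between 5.47 and 5.51, and between both arrays of a group the median absolute difference was 0.0863 to 0.1 in log2 signal. Group means under 5.49, the mean of those medians, were taken as not above background. Other cell types also moved with treatment. The summed signal of the 2 measured erythrocyte markers, Hbb and Alas2, was 14.11 and 14.18 with GW3965 and 13.11 and 13.08 with Dex+GW3965, against 13.48 and 13.57 with vehicle. That of 7 stellate cell markers was 11.65 and 11.61 with Dex, 11.99 and 12.03 with GW3965, and 11.55 and 11.54 with Dex+GW3965, against 12.32 and 12.34 with vehicle. For 5 sinusoidal endothelial markers it was 11.10 and 11.10 with Dex, 11.37 and 11.39 with GW3965, and 10.87 and 10.87 with Dex+GW3965, against 11.41 and 11.46 with vehicle. With Dex+GW3965, 4 of the 5 were called lower than with vehicle, against 21.2% of all probe sets. The 5 Kupffer cell markers summed to 11.68 and 11.67 with GW3965, against 11.18 and 11.21 with vehicle. With GW3965, 2 of these 5 were called higher, against 5.92% of all, and their median log2 fold change was 0.18. With Dex+GW3965, 1 was called higher and 3 lower, against 15.6% and 21.2% of all. Of the 6 cholangiocyte markers on the array, Krt7, Cftr and Tff2 did not pass the filter. These 6 summed to 9.17 and 9.12 with Dex+GW3965, against 8.77 and 8.70 with vehicle. Genes of the cholangiocyte list moved both ways there, since Epcam averaged 8.58 with Dex+GW3965 against 7.89 with vehicle, while Krt19 averaged 5.18, not above background, with Dex+GW3965 against 5.87 with vehicle. Their part in the results below was not tested, and in whole liver fewer cells of a type and less RNA per cell cannot be told apart.

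Promoter sequence was looked up in RefSeq (GRCr8, 250 bases before to 50 after the start site) for the members, and 6 of 10 matched: Cyp8b1, Cyp27a1, Hsd3b7, Baat, Slc27a5 and Nr0b2. Cyp7a1, Cyp7b1, Akr1d1 and Nr1h4 had no entry. Windows of Cyp8b1 and Cyp27a1 are shown because these hydroxylases, from different routes, were both higher under the combined treatment. Cyp8b1 lies on the minus strand of chr8:130455622-130457592 and its window is chr8:130457543-130457842. Cyp27a1 lies on the plus strand of chr9:83712402-83743222 and its window, chr9:83713282-83713581, is inside that annotated span. Capitals mark matches to AGGTCA, the core motif of nuclear receptors, or to CAAGGTCA, the motif of LRH-1 (Nr5a2), a receptor that SHP binds.
Cyp8b1: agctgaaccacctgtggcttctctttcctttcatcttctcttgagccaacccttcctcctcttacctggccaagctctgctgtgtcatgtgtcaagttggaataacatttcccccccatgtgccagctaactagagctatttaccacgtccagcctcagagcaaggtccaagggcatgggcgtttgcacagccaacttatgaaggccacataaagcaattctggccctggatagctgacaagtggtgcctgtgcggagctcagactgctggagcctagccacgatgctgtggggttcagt
Cyp27a1: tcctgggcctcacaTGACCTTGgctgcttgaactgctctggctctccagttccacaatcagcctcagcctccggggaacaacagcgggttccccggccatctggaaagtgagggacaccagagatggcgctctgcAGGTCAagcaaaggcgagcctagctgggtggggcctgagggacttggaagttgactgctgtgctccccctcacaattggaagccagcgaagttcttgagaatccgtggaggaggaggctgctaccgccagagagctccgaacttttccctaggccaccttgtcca

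Cyp27a1 was the only one of the 6 with a match to any motif searched on both strands. CAAGGTCA was found on the minus strand, starting at position -236 from the start site, and it contains the AGGTCA match at that place. Another AGGTCA match stood on the plus strand at -115. Among all 33469 promoters of the table, 16.2% hold AGGTCA and 1.52% hold CAAGGTCA. None of the 6 windows held the IR1 (FXR), DR1 (HNF4) or DR4 (LXR) arrangement of this core motif or the palindromic glucocorticoid element, which 0.0269%, 0.0538%, 0.00598% and 0.439% of all promoters hold. A match is a description of letters in this window.

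Cyp7a1 (1368458_at, chr5:24174505-24184202), the rate-limiting hydroxylase of the classic route, was lowest with GW3965. Its log2 signal was 10.08 and 10.08 with Dex, 6.99 and 7.00 with GW3965, and 8.44 and 8.32 with Dex+GW3965, against 10.58 and 10.65 with vehicle. All 3 treated groups lay below vehicle without overlap, in the order GW3965, Dex+GW3965, Dex. By limma with Benjamini-Hochberg adjustment over 16279 probe sets, the fall was 12.3-fold with GW3965 (log2 fold change -3.62, SE 0.055, adjusted p = 1.77e-17), the third-largest change of any probe set in that comparison. Dex lowered it 1.45-fold (-0.53, SE 0.055, adjusted p = 2.97e-07) and Dex+GW3965 lowered it 4.71-fold (-2.24, SE 0.055, adjusted p = 1.28e-15).

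The group with both compounds stood between the single treatments. Cyp7a1 was 2.61-fold higher with Dex+GW3965 than with GW3965 alone (log2 fold change 1.38, limma adjusted p = 9.5e-13), and 3.25-fold lower with Dex+GW3965 than with Dex alone (-1.70, limma adjusted p = 2.56e-13).

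Cyp8b1 (1368435_at), the sterol 12-alpha-hydroxylase that directs the classic route towards cholic acid, moved in opposite directions under single and combined treatment. It read 11.11 and 11.08 with Dex, 10.99 and 11.01 with GW3965, and 11.75 and 11.73 with Dex+GW3965, against 11.23 and 11.27 with vehicle. No 2 groups overlapped. Each compound alone lowered it slightly, 1.11-fold for Dex (log2 fold change -0.16, limma adjusted p = 0.00211) and 1.19-fold for GW3965 (-0.25, limma adjusted p = 8.14e-05), whereas both together raised it 1.4-fold (0.49, SE 0.036, limma adjusted p = 6.13e-09). The call for Dex was lost with eBayes run without a trend (adjusted p = 0.0538). Dex+GW3965 was 1.56-fold above Dex (0.64, limma adjusted p = 5.14e-10) and 1.67-fold above GW3965 (0.74, limma adjusted p = 2.23e-11).

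Cyp27a1 (1387914_at), the mitochondrial side-chain hydroxylase of the alternative route, followed dexamethasone. Signals were 12.20 and 12.20 with Dex, 11.43 and 11.40 with GW3965, and 12.14 and 12.14 with Dex+GW3965, against 11.46 and 11.56 with vehicle. Both groups that received dexamethasone lay above both that did not. The rise was 1.61-fold with Dex (log2 fold change 0.69, SE 0.037, limma adjusted p = 5.45e-11) and 1.55-fold with Dex+GW3965 (0.63, limma adjusted p = 2.63e-10). For GW3965 alone the difference was -0.094 (95% interval -0.17 to -0.015, limma adjusted p = 0.0876), and without vehicle array a it was -0.14 with an adjusted p of 0.0141. Between Dex+GW3965 and Dex it was -0.061 (95% interval -0.14 to 0.018, limma adjusted p = 0.274).

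Cyp7b1 (1388188_at, chr2:102419011-102586047), the oxysterol 7-alpha-hydroxylase, was not above background on any array. It was listed at 3.32 and 3.57 with Dex, 3.66 and 3.38 with GW3965, and 3.36 and 3.43 with Dex+GW3965, against 3.68 and 3.79 with vehicle. These values are under 5.49 throughout, so no fold change is given for this gene, and the second step of the alternative route was not measured here.

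Set beside each other, the 3 measured hydroxylases each had a pattern of their own. Relative to its own vehicle mean, Cyp7a1 minus Cyp27a1 was -1.22 and -1.23 with Dex, -3.54 and -3.51 with GW3965, and -2.80 and -2.93 with Dex+GW3965, against 0.014 and -0.014 with vehicle, on the log2 scale. On all treated arrays Cyp7a1 was thus lower relative to Cyp27a1 than on the vehicle arrays. With GW3965 this came from the fall of Cyp7a1, since Cyp27a1 did not rise (log2 fold change -0.094). Within the classic route, Cyp7a1 minus Cyp8b1 was -0.39 and -0.37 with Dex, -3.36 and -3.37 with GW3965, and -2.67 and -2.78 with Dex+GW3965, against -0.0094 and 0.0094 with vehicle. No test was run on these differences between genes.

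**Figure D1:**
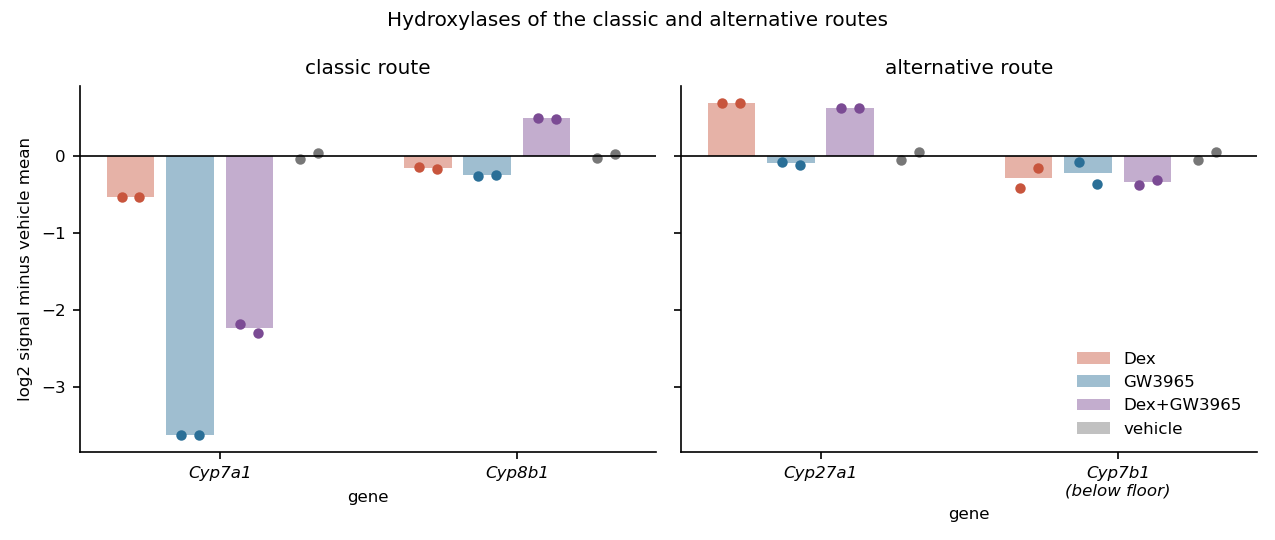
Log2 signal minus the vehicle mean (vertical axis) for the hydroxylases of the classic route (left, Cyp7a1 and Cyp8b1) and the alternative route (right, Cyp27a1 and Cyp7b1). Bars are means of 2 arrays, points are single arrays, and Cyp7b1 was below background in every group. Cyp7a1 fell by 3.62 with GW3965 and Cyp27a1 was 0.69 higher with Dex, while Cyp8b1 was above vehicle only in Dex+GW3965.

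Hsd3b7 (1370433_at, chr1:191842688-191845919), the dehydrogenase and isomerase that acts on the ring after 7-alpha-hydroxylation, varied little. It read 10.13 and 10.08 with Dex, 10.36 and 10.33 with GW3965, and 10.47 and 10.50 with Dex+GW3965, against 10.36 and 10.46 with vehicle. Dex was lowest, Dex+GW3965 was highest, and GW3965 overlapped vehicle. Dex lowered it 1.23-fold (log2 fold change -0.30, SE 0.044, limma adjusted p = 2.09e-05), while the differences from vehicle were -0.062 with GW3965 (limma adjusted p = 0.369) and 0.081 with Dex+GW3965 (limma adjusted p = 0.172, and 0.0498 with a difference of 0.13 without vehicle array b). It was 0.38 higher with Dex+GW3965 than with Dex (limma adjusted p = 4.34e-06).

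Akr1d1 (chr4:67121288-67154543), the 5-beta-reductase that bends the steroid ring of all bile acids, had the largest fall of any member with Dex on both of its probe sets. On 1398310_at the log2 signal was 10.53 and 10.62 with Dex, 12.10 and 12.09 with GW3965, and 10.80 and 10.79 with Dex+GW3965, against 12.10 and 12.04 with vehicle. The dexamethasone groups lay more than 2-fold below the other two, and GW3965 overlapped vehicle. Dex lowered the signal 2.81-fold (log2 fold change -1.49, SE 0.039, limma adjusted p = 2.45e-15) and Dex+GW3965 lowered it 2.42-fold (-1.27, limma adjusted p = 2.63e-14). With GW3965 alone it differed by 0.029 (95% interval -0.053 to 0.11, limma adjusted p = 0.665).

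The probe set 1392384_s_at, a design that can bind several transcripts, gave the same order with far more spread. Its signal was 7.15 and 6.97 with Dex, 9.34 and 9.04 with GW3965, and 8.13 and 8.47 with Dex+GW3965, against 9.67 and 8.55 with vehicle (SD 0.79). Dex lowered it 4.13-fold (log2 fold change -2.05, SE 0.22, limma adjusted p = 4.83e-07) and Dex+GW3965 lowered it 1.75-fold (-0.81, limma adjusted p = 0.00684), but without vehicle array a the difference with Dex+GW3965 was -0.25, with an adjusted p of 0.148, and without Dex+GW3965 array a it was -0.64, with an adjusted p of 0.0818. With GW3965 alone the difference was 0.084 (limma adjusted p = 0.842), but it was 0.64 without vehicle array a (adjusted p = 0.00199) and -0.47 without vehicle array b (adjusted p = 0.0147). Against GW3965 the combination gave -0.89 (limma adjusted p = 0.00359), a call lost without GW3965 array a (-0.74, adjusted p = 0.0651) or Dex+GW3965 array a (-0.72, adjusted p = 0.0501). The 2 probe sets disagreed on how far GW3965 offset Dex, since Dex+GW3965 exceeded Dex by 1.24 on 1392384_s_at and by 0.22 on 1398310_at (limma adjusted p = 0.000417 and 0.000471).

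Slc27a5 (1387325_at, chr1:82688742-82699335), which activates bile acids with coenzyme A, was also lower with dexamethasone. It read 10.85 and 10.94 with Dex, 11.88 and 11.90 with GW3965, and 11.42 and 11.44 with Dex+GW3965, against 11.77 and 11.83 with vehicle. No 2 groups overlapped, and Dex+GW3965 lay between Dex and vehicle. The fall was 1.87-fold with Dex (log2 fold change -0.90, SE 0.039, limma adjusted p = 2.65e-12) and 1.29-fold with Dex+GW3965 (-0.37, limma adjusted p = 7.03e-07), and Dex+GW3965 was 1.45-fold above Dex (0.54, limma adjusted p = 1.56e-08). For GW3965 alone the difference was 0.093 (95% interval 0.01 to 0.18, limma adjusted p = 0.108).

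Baat (1387508_at, chr5:68647166-68656137), which joins the activated acid to glycine or taurine, changed by 0.2 log2 units or less against vehicle in every group. Its signal was 12.82 and 12.76 with Dex, 12.83 and 12.84 with GW3965, and 13.05 and 13.18 with Dex+GW3965, against 13.03 and 12.95 with vehicle. The single treatments lay below vehicle and the combination above it, the same order of signs as for Cyp8b1. The log2 fold changes were -0.20 with Dex (limma adjusted p = 0.000583), -0.15 with GW3965 (limma adjusted p = 0.0132) and 0.13 with Dex+GW3965 (limma adjusted p = 0.0207). The calls for GW3965 and for Dex+GW3965 were lost under several other settings, among them eBayes without a trend (adjusted p = 0.168 and 0.183). The GW3965 call was also lost without vehicle array a (adjusted p = 0.0951), GW3965 array a (0.0916) or GW3965 array b (0.0776), and the Dex+GW3965 call without vehicle array b (0.158) or Dex+GW3965 array b (0.322).

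Nr0b2 (1368376_at, chr5:151063160-151066475), which encodes SHP, the repressor of Cyp7a1 and Cyp8b1, moved oppositely under the 2 compounds. It read 8.03 and 8.06 with Dex, 7.25 and 7.04 with GW3965, and 7.58 and 7.59 with Dex+GW3965, against 7.51 and 7.64 with vehicle. Dex lay above all other groups and GW3965 below them, and Dex+GW3965 fell within the vehicle range. Dex raised it 1.38-fold (log2 fold change 0.47, SE 0.08, limma adjusted p = 0.000115), GW3965 lowered it 1.35-fold (-0.43, SE 0.08, limma adjusted p = 0.000815), and with both it differed from vehicle by 0.011 (95% interval -0.16 to 0.18, limma adjusted p = 0.934). In the GW3965 livers the mRNAs of SHP and of Cyp7a1 were thus both below vehicle.

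Nr1h4 (1369073_at, chr7:25733471-25829440), which encodes FXR, was higher in all treated groups. Signals were 10.25 and 10.29 with Dex, 10.25 and 10.30 with GW3965, and 10.48 and 10.46 with Dex+GW3965, against 10.05 and 10.09 with vehicle. The single treatments overlapped each other and the combination lay above them. The log2 fold changes were 0.21 with Dex (limma adjusted p = 0.000586), 0.21 with GW3965 (limma adjusted p = 0.00159) and 0.40 with Dex+GW3965 (SE 0.042, limma adjusted p = 4.18e-07), the last close to the sum of the single differences, 0.42.

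**Figure D2:**
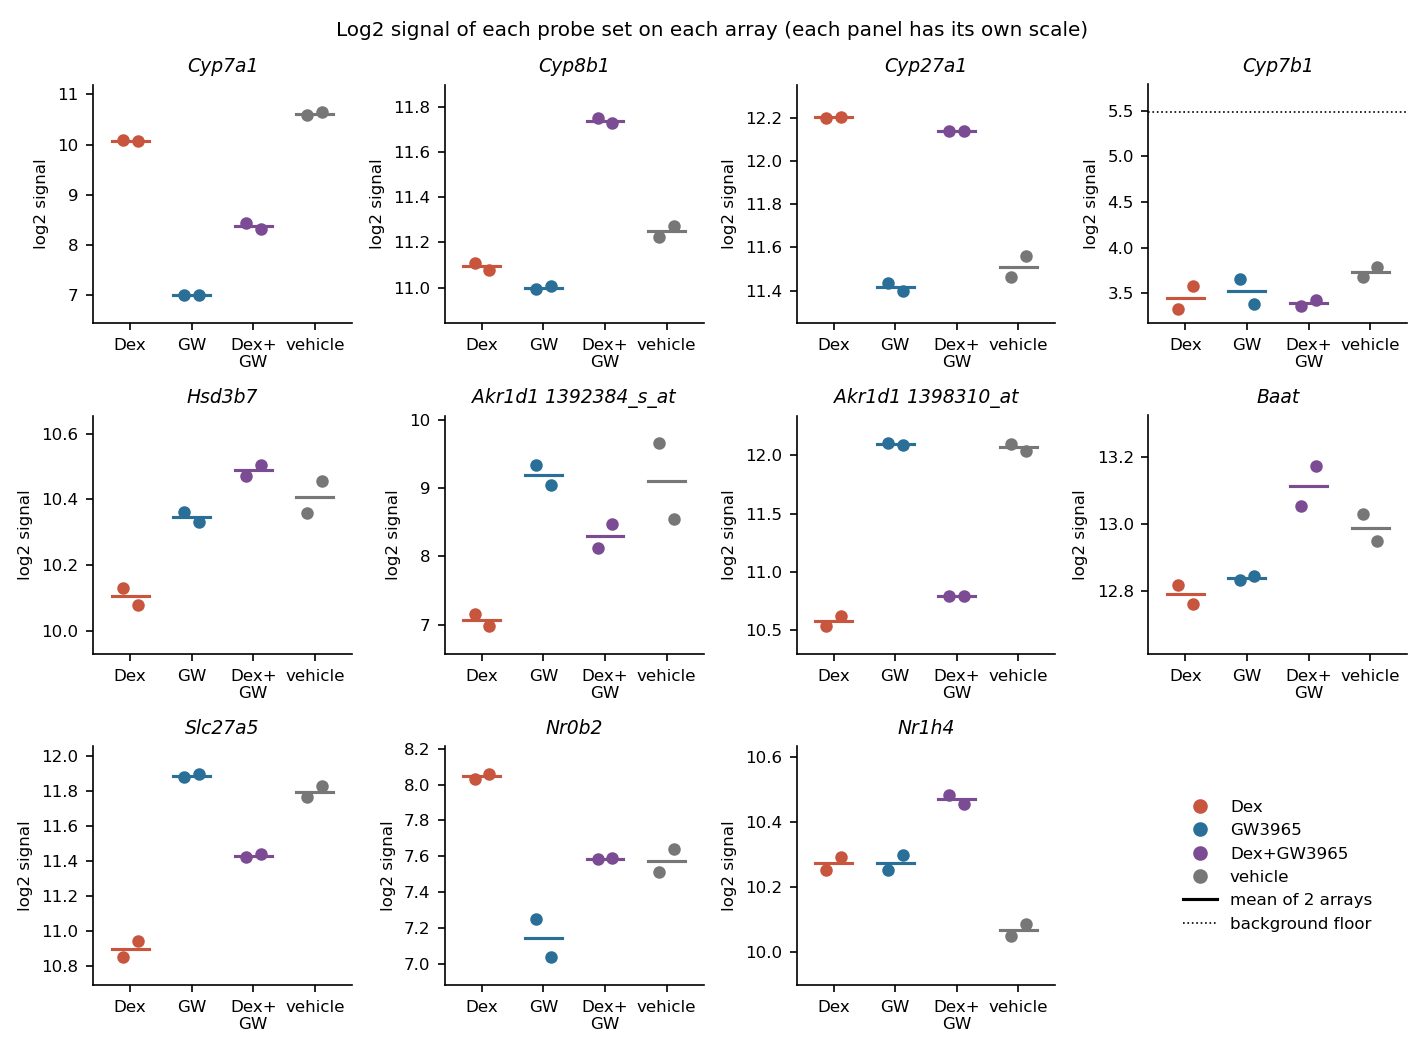
Log2 signal (vertical axis, a scale of its own in each panel) of the 11 probe sets on the 8 arrays, by group. Points are single arrays, horizontal bars are means of 2 arrays, and the dotted line in the Cyp7b1 panel is the background floor of 5.49. The vehicle arrays of Akr1d1 1392384_s_at stand far apart (9.67 and 8.55), the widest gap between arrays of a group in any panel.

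The 10 probe sets tested belong to genes chosen with earlier results of these data known, so shares of all probe sets are context only. Counted over these 10, Dex moved 10 of 10, against 41.8% of all probe sets. Cyp27a1, Nr0b2 and Nr1h4 were the 3 that rose (17.2% of all probe sets rose) and the other 7 fell (24.7% of all fell), with a median log2 fold change of -0.25, against -0.011 over all probe sets. GW3965 moved 5 of 10, against 20.4% of all, although their median absolute log2 fold change was 0.12, close to the 0.11 over all. Nr1h4 rose (5.92% of all rose) and Cyp7a1, Cyp8b1, Baat and Nr0b2 fell (14.5% of all fell), with a median of -0.078, against -0.027 over all. Of all calls with GW3965, 29.0% were higher in the deposited values. This share was 44.5% after quantile normalization and 37.4% after each array's median over the tested probe sets was subtracted.

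Dex+GW3965 moved 8 of 10 relative to vehicle, against 36.7% of all probe sets. Cyp8b1, Cyp27a1, Baat and Nr1h4 rose (15.6% of all rose), and Cyp7a1, both Akr1d1 probe sets and Slc27a5 fell (21.2% of all fell), with a median of 0.046, against -0.018 over all. Calls of at least 2-fold numbered 2 of 10 with Dex, against 4.28% of all probe sets, 1 with GW3965, against 0.786%, and 2 with Dex+GW3965, against 3.07%. All 3 comparisons use the same vehicle arrays, so they share any deviation of those arrays. Most of the 10 probe sets had a smaller SE than the median of all probe sets, 0.088. Their SE ran from 0.036 for Cyp8b1 to 0.22 for Akr1d1 on its more variable probe set. Small differences are thus called more readily in most of them, so shares called, here and below, do not compare effect sizes. The median absolute log2 fold change was 0.50 with Dex and 0.45 with Dex+GW3965, against 0.17 and 0.15 over all.

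**Figure D3:**
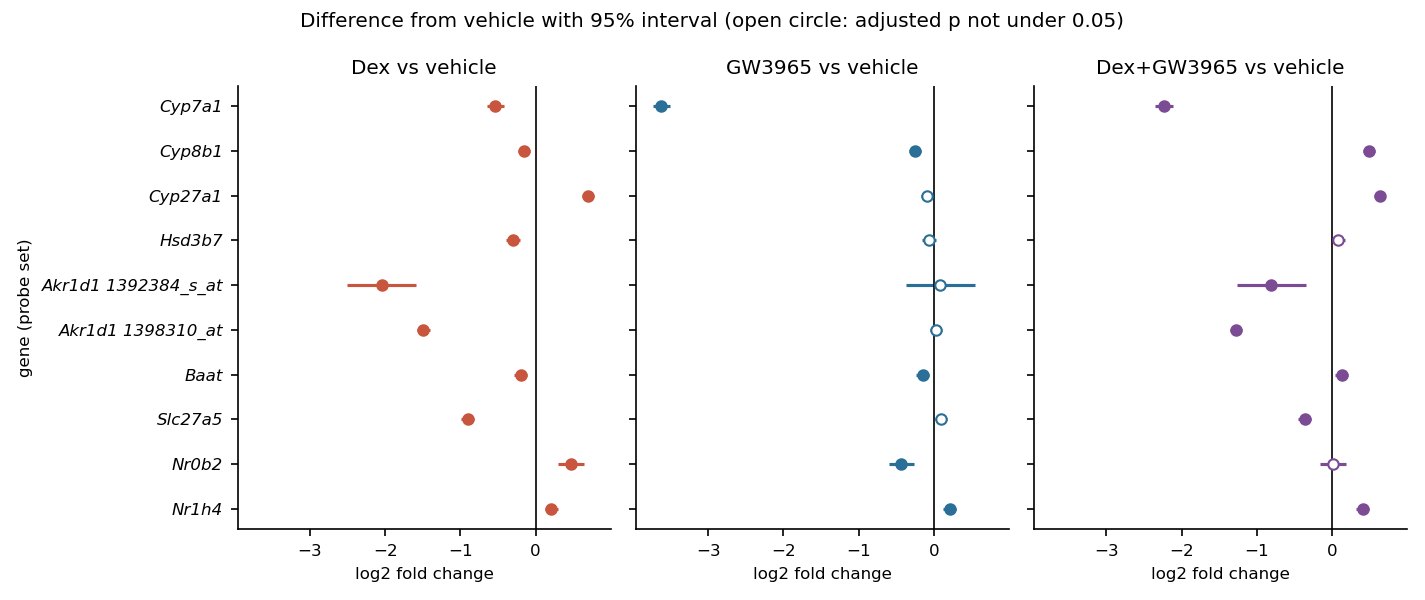
Log2 fold change against vehicle (horizontal axis) of the 10 tested probe sets (vertical axis) for Dex, GW3965 and Dex+GW3965, with 95% intervals from limma. Filled circles have an adjusted p under 0.05. Akr1d1 falls with Dex and Dex+GW3965 and stays near 0 with GW3965, and Cyp7a1 has the largest fall in the GW3965 panel, -3.62.

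Adding GW3965 to dexamethasone gave higher signals than Dex alone for Cyp8b1, Hsd3b7, Akr1d1, Baat and Slc27a5, and a lower one for Cyp7a1. Between Dex+GW3965 and Dex, 9 of 10 probe sets were called, against 22.7% of all probe sets. Cyp8b1, Hsd3b7, both Akr1d1 probe sets, Baat, Slc27a5 and Nr1h4 were the 7 higher with the combination (13.3% of all were higher), and Cyp7a1 and Nr0b2 were lower (9.38% of all were lower). The median was 0.27, against -0.00073 over all, and 2 calls, Cyp7a1 and Akr1d1 1392384_s_at, were at least 2-fold (1.02% of all). Nr0b2 was 1.37-fold lower with Dex+GW3965 than with Dex (log2 fold change -0.46, limma adjusted p = 0.000403).

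Adding dexamethasone to GW3965 moved 10 of 10 relative to GW3965 alone, against 35.8% of all probe sets. Higher with the combination were 7, namely Cyp7a1, Cyp8b1, Cyp27a1, Hsd3b7, Baat, Nr0b2 and Nr1h4 (19.0% of all were higher), and 3 were lower, both Akr1d1 probe sets and Slc27a5 (16.8% of all were lower). The median was 0.24, against -0.0055 over all, and 2 calls, Cyp7a1 and Akr1d1 1398310_at, were at least 2-fold (2.87% of all). The call for Hsd3b7 (log2 fold change 0.14, limma adjusted p = 0.017) was lost after quantile normalization (adjusted p = 0.0614) and without GW3965 array a (0.0511), GW3965 array b (0.12) or Dex+GW3965 array b (0.109).

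The interaction term asked whether the difference made by Dex was the same with and without GW3965, that is, whether the combined difference from vehicle equals the sum of the single ones. It was called for 7 of 10 probe sets, against 22.7% of all, and all 7 were positive (15.8% of all were positive and 6.94% negative). Those of Cyp7a1 and Akr1d1 1392384_s_at were the 2 of at least 2-fold (1.76% of all). Over all probe sets 69.5% of the interaction calls were positive in the deposited values. The share was 53.7% after quantile normalization and 57.7% after each array's median over the tested probe sets was subtracted. Cyp7a1 had the largest interaction, 1.92 (SE 0.077, limma adjusted p = 1.01e-11). Its single differences sum to -4.15 and the combination measured -2.24.

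For Cyp8b1 the single differences sum to -0.41 and the combination measured 0.49, an interaction of 0.89 (SE 0.052, limma adjusted p = 9.47e-10). Baat (0.48), Hsd3b7 (0.45) and Slc27a5 (0.44) had positive interactions of similar size (limma adjusted p = 9.19e-06, 5.03e-05 and 1.52e-05). Akr1d1 gave 1.16 on 1392384_s_at and 0.19 on 1398310_at (limma adjusted p = 0.0112 and 0.0188), and both calls depended on the processing. Both were lost with eBayes without a trend (adjusted p = 0.111 and 0.157). That on 1398310_at was also lost after quantile normalization (0.116) and after each array's median over the tested probe sets was subtracted (0.109). With single arrays left out, that on 1392384_s_at was lost without Dex array b, GW3965 array b or Dex+GW3965 array b (adjusted p of 0.0515, 0.0792 and 0.0581), and that on 1398310_at without vehicle array a, Dex array a, either GW3965 array or Dex+GW3965 array b (adjusted p between 0.0505 and 0.108). Cyp27a1 (0.033, 95% interval -0.078 to 0.14), Nr0b2 (-0.025, -0.26 to 0.21) and Nr1h4 (-0.011, -0.13 to 0.11) were not called.

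**Figure D4:**
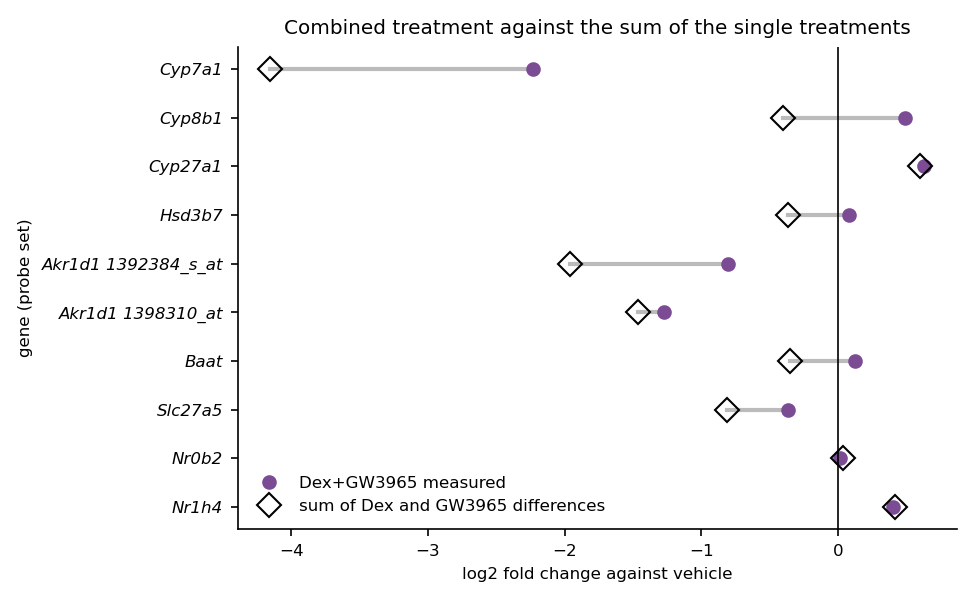
Log2 fold change against vehicle (horizontal axis) measured with Dex+GW3965 (filled circles) and the sum of the differences measured with Dex and with GW3965 alone (open diamonds), for the 10 tested probe sets (vertical axis). The gap is the interaction. It is widest for Cyp7a1 (1.92), and circle and diamond coincide within 0.1 for Cyp27a1, Nr0b2 and Nr1h4.

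The other enzymes of bile acid synthesis, 11 tested of a list of 13, moved both ways. Ch25h did not pass the filter and Acaa1a had no probe set with its symbol alone. Dex raised 3 and lowered 4 of the 11 (median log2 fold change 0.057), GW3965 raised 3 and lowered 3 (-0.06), and Dex+GW3965 raised 3 and lowered 2 (0.027). The shares of all probe sets raised and lowered were 17.2% and 24.7% with Dex, 5.92% and 14.5% with GW3965, and 15.6% and 21.2% with Dex+GW3965. Dex+GW3965 against Dex gave 1 higher and 2 lower of the 11 (0.0022, against -0.00073 over all probe sets), where 13.3% of all were higher and 9.38% lower. The pair with the largest falls in each comparison with vehicle was Cyp39a1 and Acox2. Cyp39a1, an oxysterol 7-alpha-hydroxylase, had log2 fold changes of -0.66 for Dex, -1.17 for GW3965 and -0.77 for Dex+GW3965. Acox2, which shortens the side chain in peroxisomes, gave -1.04 for Dex, -0.90 for GW3965 and -1.10 for Dex+GW3965. Amacr, the racemase that acts just before Acox2, was -0.50 with Dex, 0.40 with GW3965 and 0.31 with Dex+GW3965. The largest rises with the single compounds were those of Hsd17b10 with Dex, by 0.35, and of Slc27a2 with GW3965, by 0.42.

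Among 18 listed regulators of Cyp7a1 and Cyp8b1, 14 were tested. Rxrb, Dbp and Nr1d1 did not pass the filter and Klb had no probe set. Dex raised 7 and lowered 2 (median log2 fold change 0.17), against 17.2% and 24.7% of all probe sets. The largest rises were those of Nr1i2, the pregnane X receptor, by 1.31, and of Foxo1 by 0.96, and the glucocorticoid receptor gene Nr3c1 fell by 0.75. GW3965 raised 1 and lowered 5 (median -0.041), against 5.92% and 14.5% of all. Nr3c1 rose by 0.29 with GW3965, and Foxo1 and Prox1, a corepressor of LRH-1 and HNF4 alpha, fell by 0.37 and by 0.35. Dex+GW3965 raised 4 and lowered 1 (median 0.085), against 15.6% and 21.2% of all. With Dex+GW3965 Nr1i2 was 0.95 and Nr1i3, the constitutive androstane receptor, 0.73 above vehicle, and Hnf4a was 0.33 below it (log2 fold change -0.33).

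Of 7 listed genes under FXR control 5 were tested. Slc51a did not pass the filter and Slc51b had no probe set with its symbol alone. Dex raised Abcb11, the bile salt export pump, by 0.40 and lowered Abcc2, the exporter of conjugates, by 0.90 and Slc10a1, the bile acid importer, by 0.38. With GW3965 none was called higher (5.92% of all probe sets were) and 2 of 5 fell (14.5% of all fell), Abcc2 by 0.25 and Abcb11 by 0.14. The shares of all raised and lowered were 17.2% and 24.7% with Dex, and 15.6% and 21.2% with Dex+GW3965. With Dex+GW3965 Abcb11 was 0.17 above vehicle, and Abcc2 and Slc10a1 fell by 1.01 and by 0.17. The list does not separate genes by the direction in which FXR moves them, so its median is no measure of FXR activity. That median log2 fold change was -0.17 with Dex, -0.12 with GW3965 and -0.17 with Dex+GW3965, against -0.011, -0.027 and -0.018 over all probe sets.

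Known LXR targets moved both ways with the LXR agonist. The shares of all probe sets raised and lowered were 5.92% and 14.5% with GW3965, 17.2% and 24.7% with Dex, and 15.6% and 21.2% with Dex+GW3965. GW3965 raised 2 of 10, the cholesterol exporter Abca1 by 1.53 and the phospholipid transfer protein Pltp by 0.32. For Pltp the call was close to the threshold (limma adjusted p = 0.0463). GW3965 lowered 6, with Abcg8 and Abcg5, which form the sterol exporter of bile, at -1.32 and -1.05 (median of the list -0.33). Dex raised 1, Abca1, by 2.09, and lowered 9 (median -0.56), with Abcg5 at -3.14. Dex+GW3965 raised 1, Abca1, by 1.46, and lowered 8 (median -0.45). Cyp7a1, also a known LXR target in rats and mice, fell as well.

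By Pearson correlation over the 8 arrays, the 5 genes whose pattern was most like that of Cyp7a1, among 815 probe sets with 1 symbol and group means spanning at least 1 log2 unit, were Polg2 (r = 0.97), Itga1 (0.96), Tspyl4 (0.93), Cyp26b1 (0.89) and Pde4b (0.89). Itga1 and Tspyl4 differed from vehicle by -1.55 and -1.53 with GW3965 on the log2 scale, and all 5 were lowest there. Those most like Cyp8b1 were Cdh17 (0.99), Fam89a (0.96), Mbnl3 (0.95), Tspo (0.94) and Parp14 (0.92), with Tspo 1.84 and Parp14 1.07 above vehicle in Dex+GW3965. These are descriptions over 8 arrays in 4 groups, so the points share their groups.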

How the data were processed

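The authors deposited log2 signals, 1 for each of 31099 probe sets on each of the 8 arrays. The methods state that probes were first re-mapped to UniGene clusters and that perfect-match signals then had the MAS background subtracted. MAS5, with no version, is the tool in the submitters' processing notes. Their range showed the log2 scale, and they were not normalized again, since the array medians lay between 5.47 and 5.51. The number of arrays limits the precision, and the file gives no detection calls.

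From these values 57 control probe sets were removed, and probe sets that exceeded their own array's median on 2 or more arrays were retained. The 4 group means were estimated in 1 linear model over all arrays (limma 3.58.1, run in R 4.3.3, lmFit and eBayes with a trend), with Benjamini-Hochberg adjustment over the 16279 kept probe sets and a threshold of 0.05. The calculation was tested on simulated data. Genes outside the 10 members were read on their brightest probe set with 1 symbol. Replicate letters did not pair arrays, as deviations of same-letter arrays correlated between -0.23 and 0.083.

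All member probe sets are named, and of each pathway list at most the 2 largest rises and 2 largest falls per comparison, apart from the value of Amacr with Dex. The members and lists were chosen with earlier results of these data known. Alternatives covered normalization, filter, variance trend, samples in the fit, replicate block, averaging of probe sets, the methods' t-test, a 2-fold minimum and each array left out.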

Additional observations from a re-analysis of the deposited data

Results flagged for a closer look

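For 7 of the 10 probe sets, against 22.7% of all, the interaction term of limma called a different effect of Dex with and without GW3965. Of all interaction calls, 69.5% were positive in the deposited values and 53.7% after quantile normalization. The difference, Dex effect with GW3965 minus Dex effect without, was 1.92 for Cyp7a1, 0.89 for Cyp8b1, 0.45 for Hsd3b7, 1.16 for Akr1d1 on 1392384_s_at, 0.19 for Akr1d1 on 1398310_at, 0.48 for Baat and 0.44 for Slc27a5, all on the log2 scale. With Dex, Cyp7a1 was 1.38 higher than without it in GW3965-treated rats and fell by 0.53 in vehicle-treated rats, and Cyp8b1 was 0.74 higher in GW3965-treated rats and fell by 0.16 in vehicle-treated rats. The 2 Akr1d1 values differ between probe sets of 1 gene, and the vehicle arrays of 1392384_s_at lay at 9.67 and 8.55. Both Akr1d1 calls were lost with limma's eBayes without a trend (adjusted p = 0.111 and 0.157) and with some single arrays left out. Single arrays were not screened for outlying values, because each group holds only 2.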

How the results depend on the processing

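Probe sets called, of 10, numbered 10 for Dex, 5 for GW3965 and 8 for Dex+GW3965 against vehicle, 9 for Dex+GW3965 against Dex, 10 for Dex+GW3965 against GW3965 and 7 for the interaction. With the replicate block (letters a and b) these counts were again 10, 5, 8, 9, 10 and 7, although the letters share only a name. With each of the 8 arrays left out in turn they ranged from 10 to 10, from 4 to 6, from 7 to 8, from 9 to 9, from 8 to 10 and from 5 to 7 in that order, where a lone array is assumed to vary like the other groups. Also asking for at least a 2-fold change left 2, 1, 2, 2, 2 and 2. The methods' t-test at an unadjusted 0.05 called 6, 3, 6, 5 and 5 for the 5 comparisons and 0, 0, 0, 0 and 0 after Benjamini-Hochberg adjustment. Unadjusted, it called 2913, 1896, 2335, 2079 and 2765 of the 16279 kept probe sets (16278 for Dex+GW3965 against Dex). The 5 for Dex+GW3965 against Dex include Cyp27a1 (t-test, unadjusted p = 0.0265), which limma did not call. The t-test rests on 2 log ratios, formed here between arrays of the same letter, a pairing that the methods do not state. Over all probe sets it left between 1 and 3 calls after adjustment.

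Directions turned round only for differences that were not called. Hsd3b7 with GW3965 was 0.00298 after quantile normalization. The interaction of Cyp27a1 was -0.032 after quantile normalization and -0.012 after each array's median over the tested probe sets was subtracted. Leaving out arrays gave -0.47 to 0.64 for Akr1d1 on 1392384_s_at with GW3965. The sign was reversed without vehicle array b (-0.47) and without GW3965 array a (-0.064), and 0.64 came without vehicle array a. Leaving out arrays gave -0.0505 to 0.0726 for Nr0b2 with Dex+GW3965. For the interactions it gave -0.015 to 0.081 for Cyp27a1, -0.13 to 0.083 for Nr0b2 and -0.034 to 0.012 for Nr1h4. The cause was not tested. Of 60 results of single probe sets, 7 lost their call with an array left out. These 60 include results that were not called. Under the other settings, the t-test and the 2-fold minimum aside, 8 results lost their call. Among these were 2 for Akr1d1 on 1392384_s_at, lost with limma's eBayes without a trend. They were Dex+GW3965 against vehicle (adjusted p = 0.082) and against GW3965 (adjusted p = 0.0609). Low signal limits Cyp7b1, which lay below background.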
